A study of Rattus norvegicus with 12 samples.

Results

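Astrocytes take up the water, potassium, glutamate and bicarbonate that neuronal activity leaves outside the cells, and 9 genes of that work are described here in the lumbar spinal cord of rats after spinal cord injury (SCI). They are Aldh1l1, Aqp4, Gja1, Gjb6, Slc1a2, Slc1a3, Glul, Kcnj10 and Slc4a4. They were taken by symbol from a table of 23526 genes. Each symbol had 1 row, and all 9 passed the filter on low counts that left 18714 genes for testing. The tissue was segments L3 to L5, and there were 3 libraries in each of 4 groups: sham (day 0), SCI day 3, SCI day 7 and SCI day 14. Strain, sex, age, the level and kind of the injury, and what the sham operation was are not in the labels. All 3 sham libraries are labelled day 0, and no sham library of a later day is among the 12. The time elapsed and the injury therefore cannot be told apart. The labels leave unsaid whether replicates are different animals. The p-values therefore rest on sample-to-sample spread that may be only technical.

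Glutamate released at synapses is cleared by the transporters Slc1a2 and Slc1a3 and turned into glutamine by the synthetase Glul. Potassium enters astrocytes through the inward rectifier channel Kcnj10 and water through the channel Aqp4, both dense on the endfeet around blood vessels. The connexins Gja1 and Gjb6 join astrocytes by gap junctions, so that what was taken up can spread through the network. Slc4a4 carries sodium and bicarbonate together and takes part in pH control. Aldh1l1, an enzyme of folate metabolism, is widely used as a marker of astrocytes. Several of these genes are also used outside astrocytes: Glul and Kcnj10 by oligodendrocytes, and Glul, Kcnj10 and Slc1a3 by the satellite glia of sensory ganglia. In whole tissue, fewer cells of a type and less RNA per cell cannot be told apart.

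Total counts per library ran from 63010295 to 79072710, and the 9 genes had at least 453 counts in every library. All 11 astrocyte markers on the list used here were detected in every group, with summed levels of 6317 to 9154 CPM (counts per 1e+06 counts, after TMM scaling of libraries) in sham and 3710 to 7129 CPM at day 3. Of these 11 markers 6 are among the 9 genes. Another, the intermediate filament Gfap, made 1004 to 2346 CPM of the sum in sham and 1305 to 4720 CPM at day 3. Libraries differed in markers of other cells. The summed level of 8 neuron markers, all detected in every group, was 213 and 175 CPM in SCI day 3 replicates 1 and 3. It was 1864 CPM in replicate 2 of that day, 1898 to 2729 CPM in sham, 1407 to 2085 CPM at day 7 and 721 to 2067 CPM at day 14. The summed level of 6 Schwann cell markers, none at 0 in any group, was 39210 CPM in sham replicate 2 and 44740 CPM in SCI day 3 replicate 3. It ran from 1613 to 24460 CPM in the other 10 libraries. Sensory ganglion neuron markers, also with none of 6 at 0 in any group, summed to 103, 295 and 495 CPM in SCI day 3 replicate 2 and SCI day 14 replicates 1 and 2, and to at most 14.6 CPM elsewhere. The first 2 genes of the neuron list, Slc12a5 and Chat, were at 31.99 and 1.99 CPM in SCI day 3 replicate 1, against at least 456.7 and 38.3 CPM in sham. Of the Schwann cell list, Prx was at 2982 CPM in sham replicate 2, against 463 CPM in replicate 1. The part of these cells in the results was not tested. Beside each gene stand its day 3 values without the 2 libraries low in neuron markers and with the summed neuron markers as a covariate in the fit.

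In sham tissue Glul was the most abundant of the 9 transcripts per length and Gjb6 the least. On the deposited FPKM scale, which divides by gene length, the sham level was 413 ± 92.3 FPKM for Glul (SD, n = 3, as for every mean here) and 236 ± 53.8 FPKM for Aqp4. Then came Kcnj10 at 113 ± 45.0, Gja1 at 62.5 ± 7.29, Slc1a2 at 58.8 ± 25.1, Slc1a3 at 33.9 ± 4.80 and Slc4a4 at 29.2 ± 7.99 FPKM. Aldh1l1 stood at 12.3 ± 1.69 FPKM and Gjb6 at 7.80 ± 2.27 FPKM. The libraries of neighbours from Kcnj10 down to Slc4a4 overlapped, so the order among these 5 is within their spread, while Glul, Aqp4, Aldh1l1 and Gjb6 were separated from their neighbours in all 3 sham libraries. At day 3 the order from Aqp4 to Slc4a4 overlapped at every step. Slc1a3 was at place 6 in sham and at place 4 on day 3, at 30.3 ± 4.77 FPKM, above Slc1a2 at 21.6 ± 21.8 FPKM.

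At day 3 after SCI, 4 of the 9 genes fell against sham: Aldh1l1, Aqp4, Gja1 and Gjb6. Another 3, Slc1a2, Kcnj10 and Slc4a4, had lower means but did not pass the test, and Slc1a3 and Glul stood near or above their sham levels. Over all genes tested, 6.70% passed at this day, 1.20% with a lower and 5.50% with a higher level (edgeR's quasi-likelihood test with Benjamini-Hochberg adjustment, limit 0.05). The median log2 difference from sham was -1.42 over the 9 genes and 0.03 over all genes. In a comparison that needs no model, the CPM of every day 3 library lay below that of every sham library for 5 of the 9 genes, against 18.3% of all genes, and above it for 0, against 19.0%. At an unadjusted p under 0.05, 7 of the 9 were lower, against 14.6% of all genes lower and 35.3% in either direction (edgeR).

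**Figure D1:**
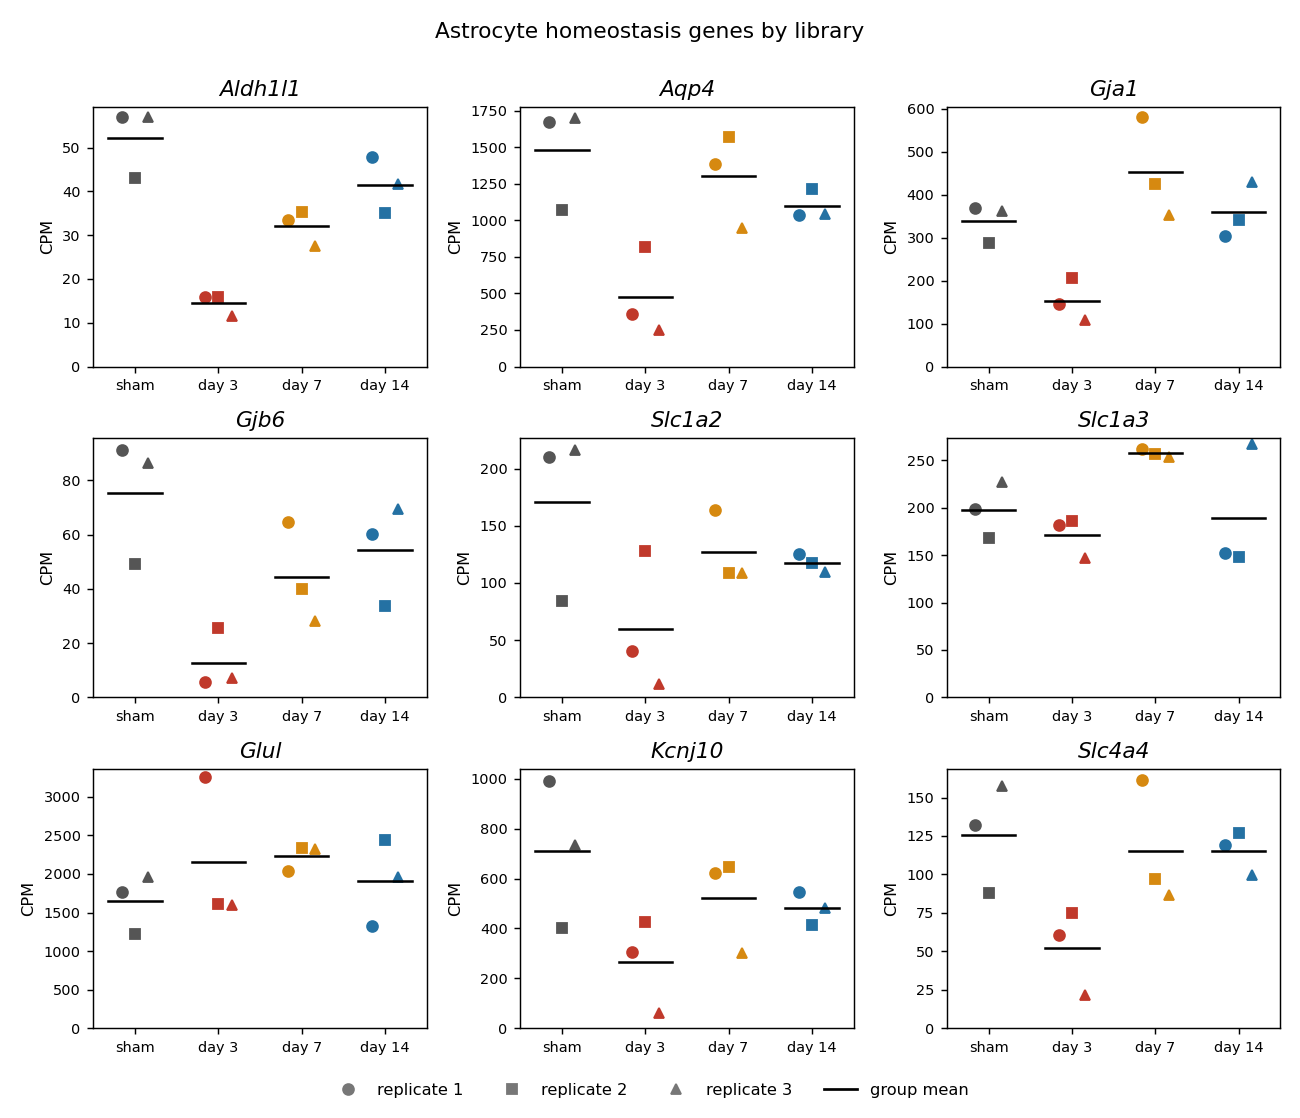
CPM of each of the 9 genes in the 12 libraries. Each panel has the 4 groups on the x axis and CPM from 0 on the y axis, points are libraries, with a marker for each replicate number, and black lines are group means. Aldh1l1 lies at 11.5 to 15.96 CPM in the 3 day 3 libraries, while Slc1a2 spans 11.97 to 128 CPM there.

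Aldh1l1 had the most uniform fall. Its level was 56.9, 43.1 and 56.9 CPM in sham replicates 1, 2 and 3, and 15.8, 15.96 and 11.5 CPM in the 3 replicates of day 3. The highest day 3 library was far below the lowest sham library, and replicate 2, whose neuron markers were near the sham range, was about as low as the others. The difference was -1.86 on the log2 scale, with a 95% interval from -2.28 to -1.43 (edgeR adjusted p = 0.00534). At day 7 it stood at 33.5, 35.2 and 27.6 CPM, and at day 14 at 47.8, 35.0 and 41.7 CPM. All 3 day 7 libraries were still below all 3 sham libraries, as for 10.8% of all genes, and those of day 14 overlapped with sham. As a share of the sham mean, Aldh1l1 stood at 27.6% on day 3, 61.4% on day 7 and 79.4% on day 14. Neither later day passed the test (log2 differences -0.70 and -0.33; edgeR adjusted p = 0.267 and 0.777).

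The call for Aldh1l1 at day 3 stood in 11 of the 12 fits that left out 1 library and was lost without sham replicate 3, at an adjusted p of 0.0506. It was also lost when the 6 libraries compared were fitted alone (edgeR adjusted p = 0.0881) and with the summed neuron markers as a covariate (edgeR adjusted p = 0.211). With SCI day 3 replicate 2 as the only library of its day, leaving out the libraries low in neuron markers, the log2 difference was -1.71 (edgeR adjusted p = 0.224), and with the neuron covariate it was -1.56. Its size was from -1.98 to -1.56 over all 25 other settings.

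The water channel Aqp4 measured 1672, 1068 and 1701 CPM in sham replicates 1 to 3. At day 3 it measured 362, 820 and 247 CPM. No library overlapped, but replicate 2 lay much closer to sham replicate 2 than the other day 3 libraries did. The log2 difference was -1.64, with an interval from -2.53 to -0.74 (edgeR adjusted p = 0.0437). Levels were 1383, 1568 and 950 CPM at day 7 and 1034, 1214 and 1046 CPM at day 14, overlapping with sham on both days (edgeR adjusted p = 0.903 and 0.891). Of the 12 fits that left out 1 library, the call at day 3 remained in 1, the one without SCI day 3 replicate 2, in which the log2 difference was -2.28. Leaving out SCI day 3 replicate 3 gave -1.33. With SCI day 3 replicate 2 as the only library of its day it was -0.85, and with the neuron covariate -0.89 (edgeR adjusted p = 0.900 and 1).

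Both connexins fell at day 3. Gja1, the main connexin of astrocytes, measured 369, 287 and 362 CPM in sham and 145, 206 and 108 CPM at day 3. The groups did not overlap, and the log2 difference was -1.15 with an interval from -1.74 to -0.56 (edgeR adjusted p = 0.0392). At day 7 it stood at 580, 425 and 353 CPM, so that 2 libraries were above every sham library. At day 14 it was 305, 342 and 431 CPM (log2 differences from sham 0.42 and 0.08; edgeR adjusted p = 0.660 and 0.953). The day 3 difference ran from -1.43 to -0.95 over the fits that left out 1 library. It was -0.72 with SCI day 3 replicate 2 as the only library of its day and -0.65 with the neuron covariate (edgeR adjusted p = 0.900 and 1).

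Gjb6, the second astrocyte connexin and in sham the scarcest of the 9 transcripts per length, measured 91.3, 49.0 and 86.3 CPM in sham. It was 5.52, 25.7 and 7.18 CPM at day 3, when its mean was 16.9% of sham, the lowest share among the 9 genes. The log2 difference was -2.56, with a wide interval from -3.87 to -1.26 (edgeR adjusted p = 0.0391). Later levels were 64.8, 39.9 and 28.0 CPM at day 7 and 60.3, 33.8 and 69.4 CPM at day 14, with at least 1 library inside the sham range on each day (edgeR adjusted p = 0.705 and 0.899). The size of the Gjb6 difference moved with single libraries. It was -3.57 without SCI day 3 replicate 2 and -2.20 without replicate 1 of that day, the ends of its range over the 12 fits that left out 1 library. It was -1.56 with replicate 2 as the only library of its day and -1.25 with the neuron covariate (edgeR adjusted p = 0.900 and 0.894). The day 3 call of Gja1 remained in 3 of the 12 fits that left out 1 library, those without SCI day 3 replicate 2 and SCI day 7 replicates 1 and 3. The call of Gjb6 remained in 4, those same fits and the one without SCI day 14 replicate 2.

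Within each library of days 3 and 7, Gjb6 relative to Gja1 stood below its sham values, a difference that the exact test cannot pass at this size. The log2 ratio of Gjb6 over Gja1 was -2.01, -2.55 and -2.07 in sham. It was -4.72, -3.00 and -3.91 at day 3 and -3.16, -3.41 and -3.66 at day 7. No library of either day overlapped with sham, and the mean differences were -1.66 and -1.20 (exact two-sided permutation test, p = 0.1 each, the smallest that 3 against 3 libraries allow; adjusted p = 0.3 over 12 such tests). Leaving out 1 library moved the day 3 difference between -2.10, without SCI day 3 replicate 2, and -1.24, without replicate 1. At day 14 the ratio was -2.34, -3.34 and -2.63, overlapping with sham. A ratio within a library does not depend on how libraries were scaled.

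The estimates of the glutamate transporters were unequal at day 3, but the exact test of their ratio cannot pass with 3 against 3 libraries. Slc1a2, the main glutamate transporter of the mature cord, measured 210, 84.5 and 216 CPM in sham and 40.1, 128 and 11.97 CPM at day 3. Replicate 2 of day 3 was above sham replicate 2, the sham library with most Schwann cell markers, so the groups overlapped. The log2 difference of -1.51 had an interval from -2.98 to -0.03 and did not pass (edgeR adjusted p = 0.135). It was -2.71 without SCI day 3 replicate 2, where it passed (edgeR adjusted p = 0.00512), and -1.02 without replicate 3 of that day. With replicate 2 as the only library of its day it was -0.41, and with the neuron covariate -0.27 (edgeR adjusted p = 0.929 and 1). Levels were 163, 109 and 109 CPM at day 7 and 126, 118 and 109 CPM at day 14, all inside the sham range.

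Slc1a3, the transporter also used by immature and radial glia, measured 199, 168 and 227 CPM in sham and 182, 186 and 147 CPM at day 3, which overlapped. Its log2 difference was -0.21 with an interval from -0.71 to 0.30 (edgeR adjusted p = 0.534), so a fall as large as that of Aldh1l1 lies outside the interval. It was -0.087 with SCI day 3 replicate 2 as the only library of its day and 0.046 with the neuron covariate. At day 7 its 3 libraries were 262, 256 and 254 CPM, all above every sham library, as for 12.8% of all genes (log2 difference 0.38; edgeR adjusted p = 0.638). At day 14 they were 152, 149 and 268 CPM. The log2 ratio of Slc1a2 over Slc1a3 was 0.08, -0.99 and -0.07 in sham and -2.18, -0.54 and -3.62 at day 3. The low value of sham replicate 2 overlapped with replicate 2 of day 3, and the mean difference of -1.79 gave an exact two-sided permutation p = 0.2 (adjusted p = 0.3 over the 12 tests). Leaving out 1 library moved it between -2.57, without SCI day 3 replicate 2, and -1.03, without replicate 3.

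Glul, which makes glutamine from glutamate and ammonia, was not lower on any day in the mean. It measured 1767, 1218 and 1958 CPM in sham and 3261, 1609 and 1603 CPM on the third day. Later levels were 2039, 2342 and 2326 CPM at day 7 and 1328, 2435 and 1959 CPM at day 14. SCI day 3 replicate 1 had the highest level of the 12 libraries, and the other 2 of that day lay inside the sham range. All 3 day 7 libraries were above all sham libraries, as for 12.8% of all genes. The log2 differences were 0.39, 0.44 and 0.21 at days 3, 7 and 14, with an interval from -0.34 to 1.12 at day 3 (edgeR adjusted p = 0.414, 0.714 and 0.907). Without SCI day 3 replicate 1 the day 3 difference was -0.036. It was -0.032 with replicate 2 as the only library of its day and -0.12 with the neuron covariate. The log2 ratio of Slc1a2 over Glul was -3.07, -3.85 and -3.18 in sham and -6.35, -3.66 and -7.07 at day 3, with replicate 2 again in the sham range (exact two-sided permutation p = 0.2; adjusted p = 0.3). The mean difference of -2.32 became -3.34 without SCI day 3 replicate 2 and -1.64 without replicate 3.

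Kcnj10, the potassium channel, measured 993, 402 and 735 CPM in sham and 306, 427 and 60.5 CPM at day 3. Replicate 2 of day 3 was above sham replicate 2, and the log2 difference of -1.42 had an interval from -2.74 to -0.11 (edgeR adjusted p = 0.121). Leaving out 1 library moved it between -1.95, without SCI day 3 replicate 2, and -0.95, without replicate 3. It was -0.73 with replicate 2 as the only library of its day and -0.52 with the neuron covariate (edgeR adjusted p = 0.920 and 1). Kcnj10 measured 623, 647 and 301 CPM at day 7 and 545, 415 and 482 CPM at day 14. Slc4a4, the bicarbonate carrier, measured 132, 87.7 and 157 CPM in sham and 60.6, 75.0 and 21.3 CPM at day 3. These did not overlap, but the log2 difference of -1.27 (interval -2.19 to -0.34) did not pass (edgeR adjusted p = 0.0751). It ran from -1.62, without SCI day 3 replicate 2, to -0.89, without replicate 3, over the fits that left out 1 library. With replicate 2 as the only library of its day it was -0.74, and with the neuron covariate -0.63 (edgeR adjusted p = 0.920 and 1). Later levels of Slc4a4, 162, 97.3 and 86.6 CPM at day 7 and 119, 127 and 99.4 CPM at day 14, overlapped with sham. The log2 ratio of Kcnj10 over Aqp4 was -1.12 ± 0.337 in sham and -1.07 ± 0.901 at day 3, a mean difference of 0.05 (exact two-sided permutation p = 1).

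**Figure D2:**
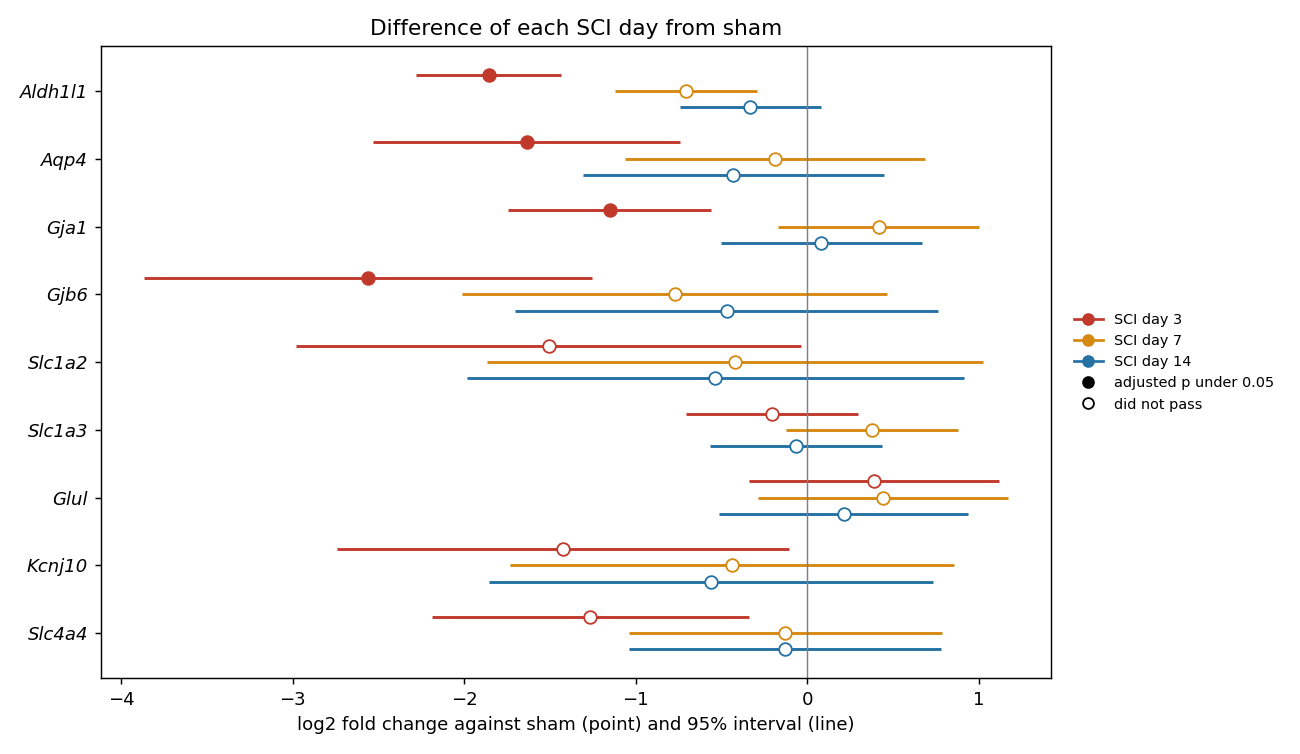
Log2 fold change of each gene on each SCI day against sham. Points are estimates and lines 95% intervals from the edgeR fit of 12 libraries, and filled points passed at an adjusted p under 0.05. Filled points occur at day 3 for Aldh1l1, Aqp4, Gja1 and Gjb6, and the intervals of Slc1a3 and Glul include 0 on each day.

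The day 3 difference was uneven between the 3 libraries of that day. The median of the 9 genes, as log2 CPM minus the sham mean, was -1.22 in replicate 1, -0.70 in replicate 2 and -2.52 in replicate 3. Replicate 2 was the highest of its day for 8 of the 9 genes and replicate 3 the lowest for 8. In sham, replicate 2 was the lowest for all 9 genes, with a median of -0.44 against 0.13 and 0.23 in replicates 1 and 3. It was also the sham library with 39210 CPM of Schwann cell markers, against 4884 and 6230 CPM in replicates 1 and 3. Its 6 oligodendrocyte markers summed to 31200 CPM, against 70800 and 47330 CPM in replicates 1 and 3. That sum was 28110 to 39910 CPM at day 3, 28340 to 41360 CPM at day 7 and 27960 to 37830 CPM at day 14. The part of oligodendrocytes was not tested. At day 7 the medians were 0.06, -0.04 and -0.52, the last in replicate 3, which had the most Schwann cell markers of that day (14850 CPM). Medians at day 14 were between -0.40 and -0.28. Mitochondrially encoded transcripts took 5.62% and 5.44% of counts in SCI day 3 replicates 1 and 3 and 6.47% to 10.8% in the other 10 libraries.

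Counts of called genes moved with these libraries. Without SCI day 3 replicate 2, 7 of the 9 genes passed at day 3, all lower, which added Slc1a2, Kcnj10 and Slc4a4. In that fit 37.1% of all genes passed, 18.0% lower, so calls became more frequent in general. Of the 9, 1 passed, Aldh1l1, without any of sham replicates 1 and 2, SCI day 3 replicates 1 and 3, SCI day 7 replicate 2 and SCI day 14 replicates 1 and 3, each left out alone. In these 7 fits 0.0313% to 2.92% of all genes passed. Without sham replicate 3 none of the 9 passed, and 0.00522% of all genes did. DESeq2 called 6 of the 9, against 27.5% of all genes and 11.5% lower. Limma voom with sample weights called 7, against 33.3% and 15.6% lower. Without the 3 libraries with most ganglion markers 6 were called, against 34.7% and 17.5% lower. With the summed Schwann cell markers as a covariate, Aldh1l1 was the 1 gene called, as it was without sham replicate 2 and SCI day 3 replicate 3 together. Over all genes, 0.0908% and 0.0158% passed in these fits. The sizes for Aqp4, Gja1 and Gjb6 were -1.39, -1.01 and -2.28 with that covariate and -1.51, -1.06 and -2.51 without those libraries. With SCI day 3 replicate 2 as the only library of its day 0 of the 9 were called, against 0.00508% of all genes. With the neuron markers as a covariate 0 were called, against 0.0107%. In that fit 3 of the 9 had an unadjusted p under 0.05 (edgeR), as had 890 of the 18714 genes tested. Neuron markers and the group cannot be fully told apart in these libraries.

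**Figure D3:**
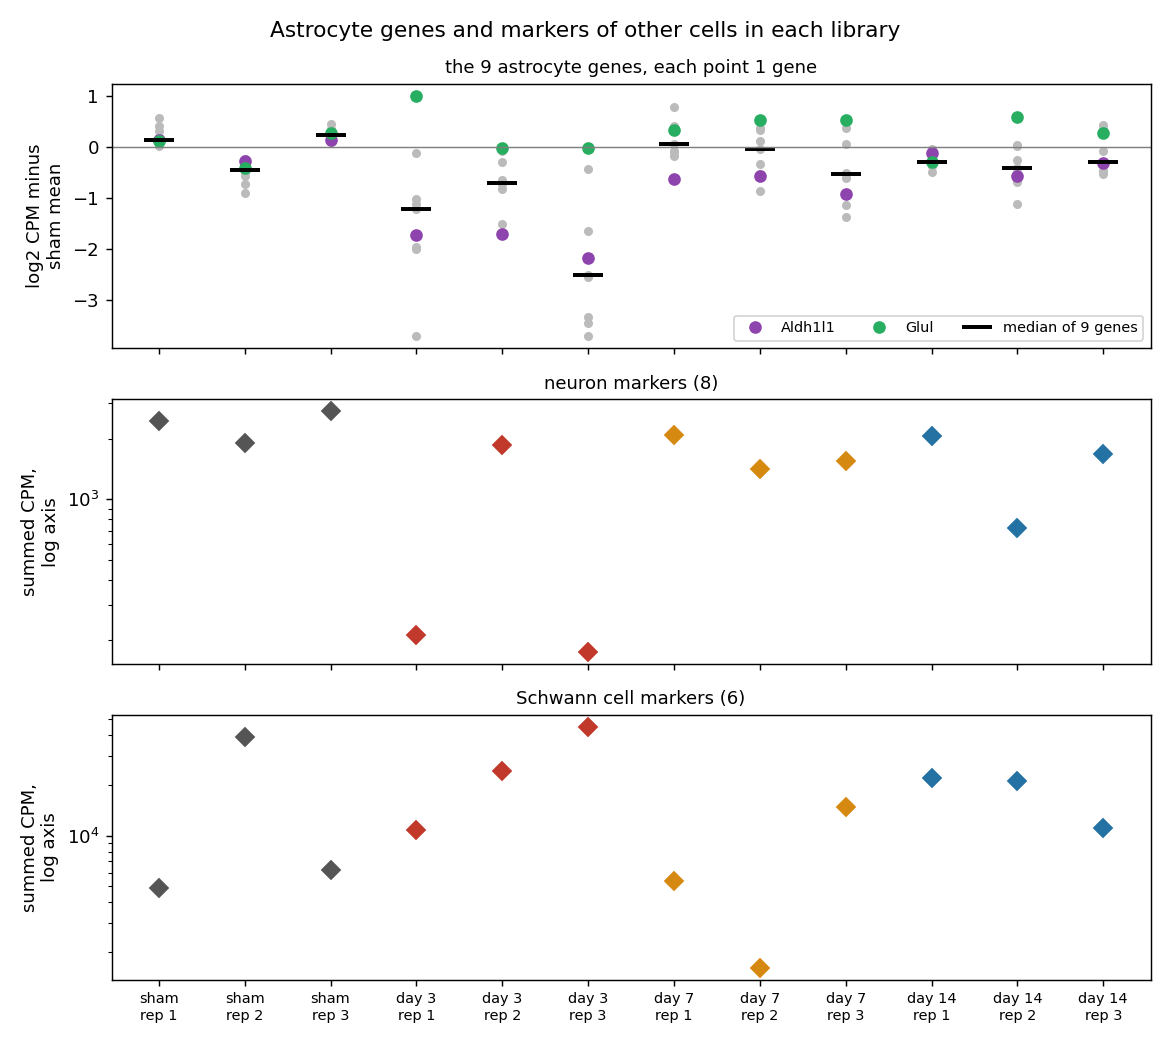
The 9 genes and markers of other cells in each library. The top panel shows log2 CPM minus the sham mean for each gene (points; Aldh1l1 purple, Glul green) and their median (black bar), and the lower panels show summed CPM of 8 neuron and 6 Schwann cell markers on log axes. SCI day 3 replicates 1 and 3 have the lowest medians, -1.22 and -2.52, and the lowest neuron sums, while Aldh1l1 is about as low in replicate 2 as in replicate 1.

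At days 7 and 14 none of the 9 genes passed against sham. Over all genes 0.0160% passed on each of these days, so the test called almost nothing there. At an unadjusted p under 0.05 there was 1 of the 9 at day 7, Aldh1l1, against 9.89% of all genes and 2.13% lower, and 0 at day 14, against 7.40% and 0.967% lower. No gene of the 9 had groups without overlap at day 14, against 6.28% of all genes lower and 9.37% higher. DESeq2 and limma voom each called 1 of the 9 at day 7, Aldh1l1, against 2.74% and 1.47% of all genes, and 0 at day 14. The median log2 difference of the 9 genes was -0.19 at day 7 and -0.33 at day 14, against -0.02 and 0.01 over all genes. The 3 comparisons share the sham libraries, so the low level of sham replicate 2 enters each.

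Between days, levels of most of the 9 genes were higher at days 7 and 14 than at day 3, without calls. In the comparison of day 7 with day 3, edgeR called 0 of 18714 genes. For 6 of the 9 every day 7 library was above every day 3 library, against 6.08% of all genes, and for 0 every library was below, against 7.69%. Of the 9, 6 had an unadjusted p under 0.05, against 14.8%, and all 6 were higher, while 9.48% of all genes were lower at that limit. The log2 differences were 1.57 for Gja1 (edgeR adjusted p = 0.323), 1.15 for Aldh1l1 (edgeR adjusted p = 0.289), 1.45 for Aqp4 and 1.79 for Gjb6 (edgeR adjusted p = 0.323 for both). DESeq2 called 3 of the 9, Aldh1l1, Aqp4 and Gja1, against 1.29% of all genes and 0.673% higher, and voom called 0. Without SCI day 3 replicate 2, edgeR called 6, adding Gjb6, Slc1a2 and Slc4a4 to these, against 18.9% of all genes and 11.4% higher.

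In the comparison of day 14 with day 3 edgeR again called 0 genes. For 5 of the 9 the libraries did not overlap, all higher, against 7.02% of all genes higher and 9.43% lower. The number with an unadjusted p under 0.05 was also 5, all higher, against 17.9% of all genes in either direction and 11.0% lower. Aldh1l1 was 1.53 higher on the log2 scale (edgeR adjusted p = 0.0807), Gja1 1.23 and Gjb6 2.09 (edgeR adjusted p = 0.188 and 0.191). DESeq2 called these 3, against 5.86% of all genes and 1.74% higher, and voom called 0. Without SCI day 3 replicate 2, edgeR called 6, against 22.8% of all genes and 12.9% higher. Days 14 and 7 differed by -0.44 to 0.37 on the log2 scale over the 9 genes, with 0 called by edgeR, DESeq2 or voom. At an unadjusted p under 0.05 there were 0, against 3.67% of all genes and 1.42% lower, and 0 had groups without overlap, against 4.83% lower and 5.40% higher.

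**Figure D4:**
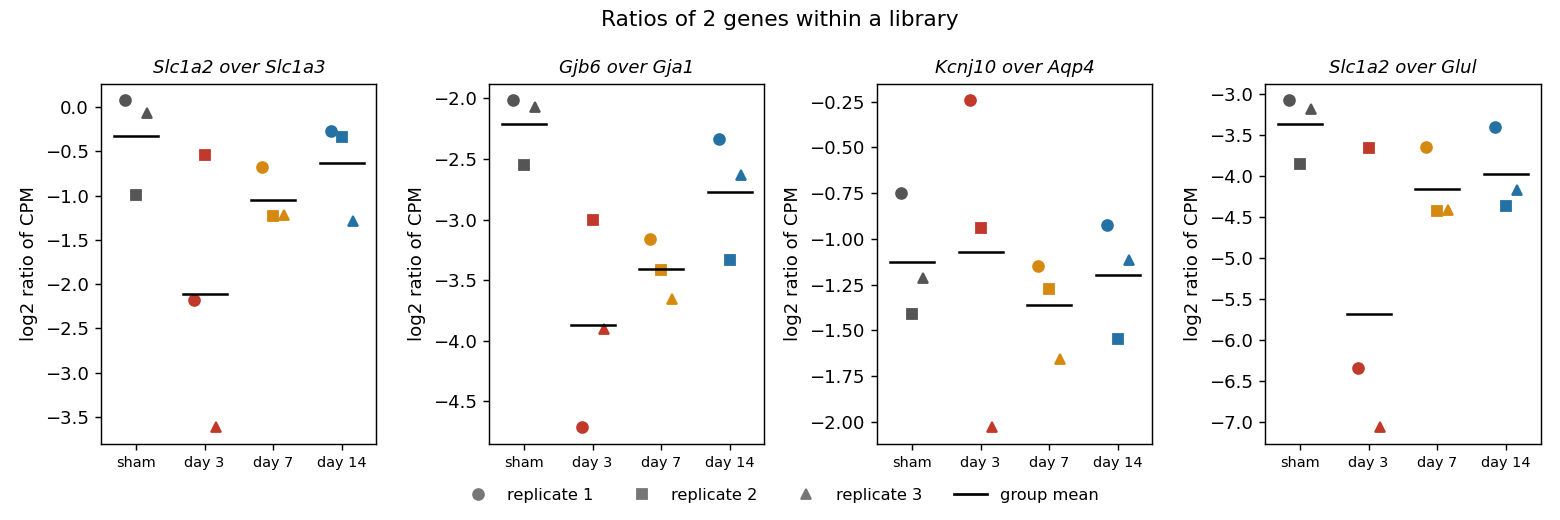
Log2 ratios of 2 genes within each library. The 4 panels are Slc1a2 over Slc1a3, Gjb6 over Gja1, Kcnj10 over Aqp4 and Slc1a2 over Glul, with groups on the x axis, points for libraries and black lines for group means. Gjb6 over Gja1 is below all sham libraries in every library of days 3 and 7, and Kcnj10 over Aqp4 has nearly the same mean in sham and at day 3.

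Other genes of these tasks, of astrocyte identity and of reactive astrocytes were read from 8 lists of 81 symbols, of which 79 were tested. At day 3, 12 rose and 3 fell, against the 5.50% and 1.20% of all genes given above. Of the rises, 7 were in the reactive astrocyte list, which is not one of the tasks of the 9 genes. At days 7 and 14 edgeR called 0 of 79, against 0.0160% of all genes on each day. The numbers at an unadjusted p under 0.05 were 18 and 9 (edgeR), against 9.89% and 7.40% of all genes. The day 3 counts rest on single libraries. None of the 79 passed in edgeR without sham replicate 1 or 3, SCI day 3 replicate 1 or 3, SCI day 7 replicate 2 or SCI day 14 replicate 3, each left out alone. In these 6 fits 0.00522% to 0.0942% of all genes passed. Without SCI day 3 replicate 2, 20 rose and 26 fell, against 19.2% and 18.0% of all genes. Of 13 genes of the glutamate and glutamine cycle 3 fell and 1 rose, with a median of -0.36. Glud1, the mitochondrial glutamate dehydrogenase, fell from 561 ± 79.6 to 291 ± 67.6 CPM (edgeR adjusted p = 0.0386). Slc38a3, which exports glutamine, fell from 81.8 ± 17.9 to 31.4 ± 18.1 CPM (edgeR adjusted p = 0.0449). Grm3, a metabotropic glutamate receptor of astrocytes, fell from 55.96 ± 18.7 to 14.8 ± 9.71 CPM (edgeR adjusted p = 0.0492). Slc1a5, a neutral amino acid exchanger of the same family as Slc1a2, rose by 2.11 (edgeR adjusted p = 0.0439). Its levels were 38.4, 11.3 and 63.6 CPM in the 3 day 3 libraries against 8.47 to 8.98 CPM in sham, lowest in replicate 2.

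Of 8 genes of potassium uptake 0 passed and 3 had an unadjusted p under 0.05 (edgeR), against 35.3% of all genes. In the estimate 6 were lower, against 48.1% of all genes. Atp1b2, a beta subunit of the sodium pump, had a log2 difference of -1.21 (edgeR adjusted p = 0.0953). Of 10 genes of water and volume control 1 rose, against 5.50% of all genes. It was the cation channel Trpv4, by 3.97 on the log2 scale, from at most 0.616 CPM in sham to 13.6, 1.88 and 10.3 CPM (edgeR adjusted p = 0.0358).

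Of 6 tested genes of acid and bicarbonate handling 2 rose, against 5.50% of all genes. They were the bicarbonate carrier Slc4a7, by 1.27, and the lactate exporter Slc16a3, by 2.70 (edgeR adjusted p = 0.0424 and 0.0477). Of 7 genes of folate and serine metabolism 1 rose, against that same share of all genes. It was the serine hydroxymethyltransferase Shmt1, by 2.31 (edgeR adjusted p = 0.0392), while Aldh1l1 fell. Of 6 other gap junction and hemichannel genes 0 passed and 3 had an unadjusted p under 0.05 (edgeR), against 35.3% of all genes. The smallest p was that of Gjc3, a connexin of myelinating glia, with a log2 difference of -1.01 (edgeR adjusted p = 0.0620).

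Astrocyte identity genes and regulators gave 0 of 16, with a median of -0.91 at day 3. At an unadjusted p under 0.05 there were 12 (edgeR), against 35.3% of all genes in either direction. Of the 16, 10 were lower in the estimate, against 48.1% of all genes, so the 12 include rises. The receptor Ntsr2 came closest at -1.74 (edgeR adjusted p = 0.0506), followed by S100b, a calcium-binding protein also made by Schwann cells, at -0.60 (edgeR adjusted p = 0.0579). The regulator Sox9, singled out after its values were seen, measured 24.2, 14.7 and 22.2 CPM in sham and 14.0, 33.7 and 14.7 CPM at day 3. Of 13 tested reactive astrocyte genes 7 rose, against 5.50% of all genes, among them Tm4sf1, Timp1, Cd44 and Socs3. Their log2 differences were 2.72, 4.44, 2.81 and 5.77 (edgeR adjusted p = 0.0324 for each). Gfap, also on this list, did not pass. The 9 genes and this list had medians of -1.42 and 2.40. All 13 lay above 0 in each of 25 other settings, with medians from 1.41 to 3.07, while the number that passed ran from 0 to 11. The summed level of 4 endothelial markers was 482 to 1251 CPM in the 3 day 3 libraries against 214 to 285 CPM in sham, and its part in these differences was not tested.

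**Figure D5:**
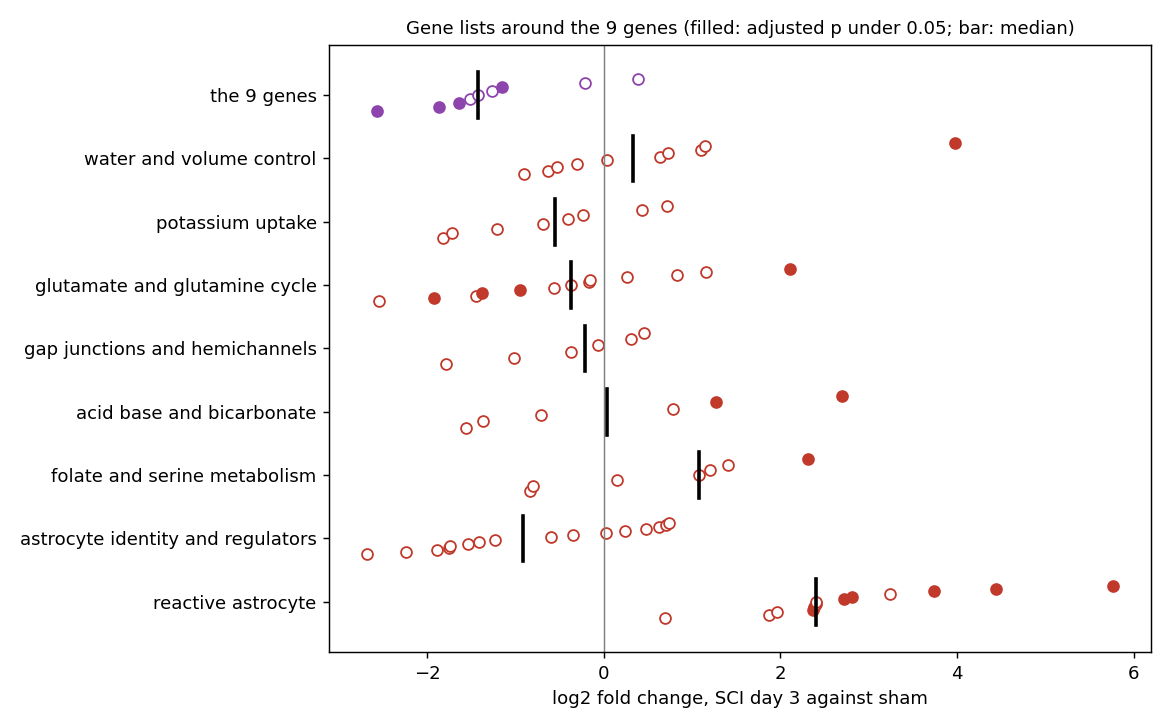
Log2 fold changes at day 3 against sham for the 9 genes and the 8 lists around them. Each point is a gene, filled where its adjusted p was under 0.05, and black bars are medians. The 9 genes have a median of -1.42, the reactive astrocyte list lies wholly above 0 with a median of 2.40, and the other lists have points on both sides.

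The 9 genes followed one another to different degrees. Across the 12 libraries, Pearson's r between a gene's log2 CPM and the mean of the other 8, each standardised, was 0.94 for Aqp4, 0.93 for Slc4a4, 0.92 for Gja1 and Slc1a2 and 0.90 for Kcnj10. It was 0.82 for Gjb6, 0.80 for Aldh1l1, 0.54 for Slc1a3 and -0.04 for Glul. These values describe 12 libraries in which SCI day 3 replicates 1 and 3 lie far from the rest, and all genes share the library's depth and tissue content. Among 11778 other genes with a mean of at least 5 CPM, those most like the mean of the 9 were Klhl36 (r = 0.98), Grin2c (0.98), Ncam1 (0.98), Jakmip3 (0.98) and Slc6a9 (0.97). Of these, Grin2c encodes an NMDA receptor subunit, Ncam1 a neural adhesion molecule and Slc6a9 the glycine transporter of glia. Jakmip3 was the 1 of these 5 called at day 3 (log2 difference -1.75; edgeR adjusted p = 0.0475).

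Promoters are shown for 3 of the 4 genes that fell at day 3 and for Slc1a3, a transporter that did not pass and whose window holds matches. RefSeq's promoter table for rat (build GRCr8) held all 9 genes in 15 windows, since some have several starts. The 250 bases before the first listed start are printed for these 4 genes. Capitals mark matches, on either strand, to 4 motifs: TGANTCA for AP-1, TTCNNNGAA for STAT factors, TTGGC for the NFI family and ACAAAG for SOX factors. Matches of different motifs may overlap.

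Aldh1l1, chr4:124616970-124617219, plus strand: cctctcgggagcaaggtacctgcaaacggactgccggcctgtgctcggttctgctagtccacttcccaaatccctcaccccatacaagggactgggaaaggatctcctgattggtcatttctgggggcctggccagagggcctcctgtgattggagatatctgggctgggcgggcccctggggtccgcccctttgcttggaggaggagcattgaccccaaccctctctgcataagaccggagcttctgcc

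Gjb6, chr15:35410139-35410388, minus strand: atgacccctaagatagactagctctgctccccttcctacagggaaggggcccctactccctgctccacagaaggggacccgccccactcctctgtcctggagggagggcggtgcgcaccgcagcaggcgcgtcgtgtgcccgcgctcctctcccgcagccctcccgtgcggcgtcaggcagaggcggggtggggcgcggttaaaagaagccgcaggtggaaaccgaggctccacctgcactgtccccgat

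Gja1, chr20:36302314-36302563, plus strand: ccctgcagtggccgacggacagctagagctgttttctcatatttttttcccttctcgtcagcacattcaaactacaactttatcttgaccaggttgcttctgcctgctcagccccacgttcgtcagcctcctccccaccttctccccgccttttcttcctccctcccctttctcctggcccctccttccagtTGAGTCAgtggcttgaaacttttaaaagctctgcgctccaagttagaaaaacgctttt

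Slc1a3, chr2:59557809-59558058, minus strand: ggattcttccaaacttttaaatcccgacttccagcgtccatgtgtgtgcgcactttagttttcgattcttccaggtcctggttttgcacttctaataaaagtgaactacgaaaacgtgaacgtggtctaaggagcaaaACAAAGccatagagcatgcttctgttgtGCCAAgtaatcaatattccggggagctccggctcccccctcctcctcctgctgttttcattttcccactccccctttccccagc

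Gja1 held the 1 AP-1 match among the 9 first windows, 58 bases before the start, while 6.3% of all 33469 windows of this length hold one. STAT letters were in 0 of the 9, against 7.7% of all windows. The NFI letters were in 3 of the 9 first windows, those of Slc1a3, Kcnj10 and Slc4a4, against 40.3% of all windows, and the SOX letters in 2, Slc1a3 and Kcnj10, against 16.3%. The first windows of Aldh1l1, Aqp4 and Gjb6, which fell, and of Slc1a2 and Glul, which did not pass, held none of the 4 motifs. The second windows of Aqp4 and Gjb6 held a SOX match, and those of Gjb6, Slc1a2 and Glul held NFI matches. Over all 15 windows, 8 held NFI and 6 held SOX letters, among them all 3 windows of Slc1a3. A match is a description of letters, and its absence says only that these letters are not in this window.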

How the data were processed

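The 12 libraries of rat lumbar cord came from total RNA and a SMARTER mRNA-Seq kit, per the labels. Columns headed count hold whole numbers and were taken as the authors' raw counts. Columns headed FPKM hold the authors' deposited FPKM, used for levels between genes and in 1 alternative for the ratios. Within a gene, FPKM followed counts to 0.443% over 9502 genes. The aligner, the counter and the use of strand: not given in the sources used here. The submitters' processing notes name mouse builds (GRCm38, mm10) while the gene identifiers are those of rat, so no coordinates of the table are printed.

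Low counts were removed with edgeR's filterByExpr, libraries were scaled with TMM, and a mean per group was fitted to the 12 libraries (edgeR 4.0.16 in R 4.3.3, quasi-likelihood test, Benjamini-Hochberg adjustment over 18714 genes). CPM and 95% intervals are from that fit, and log2 CPM used a prior count of 2. Alternatives were DESeq2 1.42.0, limma 3.58.1 voom with sample weights, other scalings and filters, a replicate block, fits of 2 groups, and leaving out each library in turn. The procedure was run on simulated data. Counts there were drawn independently for each gene, so shifts shared by many genes in a library were absent. That run therefore does not bear on calls that move with single libraries. The most similar libraries differed by a chi-square of 60.3 per gene, so none was counted as a copy.

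The 9 genes, the lists and the tests were chosen with earlier results of these data known. Named were the 9 genes, per list up to 4 called genes (or the 2 of smallest p), the 5 genes most like the mean of the 9, and the first 2 genes of marker lists where libraries stood apart. Some genes that this rule names are not reported here. Settings that drop libraries for their markers, or add a marker covariate, were picked after seeing the data, as were the list counts in each setting.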

Additional observations from a re-analysis of the deposited data

Results flagged for a closer look

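Gja1 and Slc1a3 were singled out because their day 3 and day 7 libraries lay on opposite sides of the sham mean. All 3 day 3 libraries of each gene were below the sham mean of log2 CPM and all 3 day 7 libraries above it. The mean difference from sham was higher at day 7 than at day 3 by 1.59 for Gja1 and by 0.593 for Slc1a3, on the log2 CPM scale. In edgeR's test of day 7 against day 3 over all genes, both had an adjusted p of 0.323, and DESeq2 called Gja1.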

How the results depend on the processing

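Aldh1l1, Aqp4, Gja1, Gjb6, Slc1a2, Kcnj10 and Slc4a4 were lower at day 3 than in sham in each of 25 other settings, but the calls moved. Of 1125 refitted fold changes of the 9 genes over all comparisons, 1018 kept direction and side of the limit, 51 lost a call, 30 gained one and 26 changed sign. DESeq2 called 5150, 512 and 207 genes at days 3, 7 and 14 against sham, and 241, 49 and 1096 for day 7 against 3, 14 against 7 and 14 against 3. Of the 9 genes it called 1 at day 7 and 3 in each comparison of a later day with day 3. Voom called 6232, 276 and 9 genes against sham and 1 for day 7 against 3, with 7 of the 9 at day 3 and 1 at day 7. Without a filter 733 genes passed at day 3. Fits of 2 groups called 1, 86 and 0 genes against sham and 0 of the 9 at day 3. The cause of these shifts was not tested.

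Same-numbered replicates did not consistently deviate together (18 pairs, r from -0.34 to 0.25, 6 of them over 0.1). Of 36 comparisons of a library with another group, 13 were best with its own number. No clear pairing by number was seen with 3 libraries per group. With a replicate block 8, 1 and 1 genes passed against sham and 1 for day 7 against 3, and of the 9 genes 1 passed at day 3, Aldh1l1.

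Settings chosen after seeing the data gave, at day 3, 1 gene and 0 of the 9 without the libraries low in neuron markers. They gave 3 genes and 1 of the 9 without those highest in Schwann cell markers, and 6787 genes without those with ganglion markers. The Schwann cell covariate gave 17 genes and 1 of the 9, and the neuron covariate 2 and 0. Signs changed for Glul at day 3 (-0.032 without the low-neuron libraries, -0.12 with the neuron covariate) and Slc1a3 (0.046 with that covariate). For Slc4a4, day 14 against 7, values were 0.00396 with voom, 0.003185 without TMM and 0.03261 with the replicate block. The median of the 9 in SCI day 14 replicate 3 was -0.22 without TMM.

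With 1 library left out, called genes ran from 1 to 7087 at day 3, 1 to 7 at day 7, 1 to 3 at day 14, 0 to 3605 for day 7 against 3 and 0 to 4342 for day 14 against 3. Of the 9 genes, 0 to 7 passed at day 3 and 0 to 6 in both comparisons with day 3. Fold changes that changed sign ran, against sham, from -0.036 to 0.56 (Glul, day 3), -0.45 to 0.066 (Slc4a4, day 7), -0.070 to 0.19 (Gja1, day 14), -0.40 to 0.075 (Slc1a3, day 14), -0.011 to 0.42 (Glul, day 14) and -0.33 to 0.064 (Slc4a4, day 14). Against day 3 they ran from -0.12 to 0.48 (Glul, day 7), -0.39 to 0.25 (Glul, day 14) and -0.19 to 0.29 (Slc1a3, day 14). For day 14 against 7 they ran from -0.21 to 0.11 (Slc1a2), -0.40 to 0.056 (Kcnj10) and -0.17 to 0.32 (Slc4a4). Ratio differences ran from -0.36 to 0.53 and -0.22 to 0.11 (Kcnj10 over Aqp4, days 3 and 14) and -0.64 to 0.022 (Slc1a2 over Slc1a3, day 14). With at least 453 counts per gene and library, the spread between libraries and not counting error limits these results.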

Other observations

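Gfap, the intermediate filament of astrocytes, was singled out after its values were seen. It measured 2328, 1004 and 2346 CPM in sham and 4720, 3143 and 1305 CPM at day 3. It was 7564, 8365 and 7028 CPM at day 7 and 1243, 5275 and 2590 CPM at day 14. All 3 day 7 libraries were above all 3 sham libraries, as for 12.8% of all genes, while days 3 and 14 overlapped with sham. The log2 differences were 0.69, 2.02 and 0.68 at days 3, 7 and 14, and none passed (edgeR adjusted p = 0.398, 0.309 and 0.886).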
